A study of Homo sapiens with 3 samples.

Results

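The comparison described here set DU145 cells transfected with TSPAN18 siRNA 2 against DU145 cells transfected with a control siRNA, with 1 library on each side. Its members are the genes listed in both tables whose mean over these 2 libraries reached 1 CPM, and 14327 of 22773 genes met that rule. CPM is the count of a gene scaled to the total of its library. DU145 is an androgen-independent line of human prostate cancer cells. All cultures received 75 nM siRNA with Lipofectamine RNAiMAX, a lipid reagent, and RNA was taken after 48 h and sequenced as paired-end reads. Another library, from cells given TSPAN18 siRNA 1 at the same dose and time, is given beside these values. It shows which differences appeared with siRNA 2 and not with another siRNA against the same message. No condition has a second library and nothing says how many cultures were pooled, so sizes are given without a test, and p-values cannot be had. Where 3 values stand together they follow the order control, siRNA 1 and siRNA 2. Intervals are 95%. Those of a gene's level cover counting error only, as PCR copies are not independent molecules. Those of a share of genes treat genes of the same libraries as independent draws and do not measure differences between cultures.

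TSPAN18 encodes a tetraspanin, a family of membrane proteins that gather partners such as integrins, proteases and channels into patches of the cell surface. A small interfering RNA is loaded into an Argonaute protein, and its guide strand directs cutting of messages that match it along its length. Messages that match only the seed, bases 2 to 8 of the guide, can also be lowered, mostly through sites in their 3′ UTR (the untranslated end of the message). For that reason studies commonly use a pair of siRNAs with different seeds against 1 gene. The guide sequences of the siRNAs were not used here.

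The libraries were of similar depth, with 29766559 to 30058731 read pairs. Mitochondrial genes took 7.16 to 7.84% of the reads. Of 12 markers listed for DU145 as an epithelial line, 11 passed the filter. All 11 were below the control with siRNA 2, with a median log2 ratio of −0.32, against −0.32 with siRNA 1, 2 of them past 1.5-fold and 7 below both other libraries. The keratin KRT8 was at 464 CPM in the control and 384 CPM with siRNA 2. Of 15 prostate lineage and androgen response genes, 6 passed. Of 12 markers each of fibroblasts, endothelium and blood cells, 3, 2 and 1 passed. Summed, the fibroblast markers that passed were at 45.8 CPM in the control and 33.0 CPM with siRNA 2, mostly FBLN1. The endothelial ones were at 36.7 and 41.3 CPM, mostly EGFL7, and the blood cell one, CD14, at 1.36 and 0.638 CPM. Among the defining markers, VWF and CDH5 of endothelium were at 1 read pair each in the control and at 8 and 6 pairs with siRNA 2. PECAM1 (9 and 27 pairs) and the fibroblast marker PDGFRB (5 and 26) were also above the control, while KDR (10 and 3) and CLDN5 (18 and 8) were below it. The part of such RNA in the results was not tested. Fewer cells of a kind and less RNA per cell cannot be told apart in such bulk samples. The tables of the control and of siRNA 1 hold the same 23813 genes, while that of siRNA 2 holds 23995. The median log2 ratio over all tested genes was 0.01 for siRNA 2 over control, −0.11 for siRNA 1 over control and 0.12 for siRNA 2 over siRNA 1. Ratios of siRNA 2 over control fell with transcript GC content (Spearman rho −0.357 across genes, which are not replicates), and the part of GC content in the difference of single genes was not tested.

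TSPAN18, the intended target, was at 16.9, 1.37 and 1.51 CPM. With siRNA 2 it kept 8.93% of its control level (interval 6.43 to 12.1%). Its log2 ratio of −2.84 was the lowest of all tested genes. Both TSPAN18 siRNAs thus left the message at a similarly low level, and siRNA 2 stood at 110.3% of siRNA 1 (70.6 to 173%).

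Most genes moved little. On the scale of log2(CPM + 1), which understates change at low levels, 87.1% of the tested genes lay within 1.5-fold of the control. At least 2-fold higher with siRNA 2 were 157 genes (1.10% of those tested) and at least 2-fold lower were 165 (1.15%). At 1.5-fold the numbers were 910 higher (6.35%) and 944 lower (6.59%). The higher genes were mostly of low level, with a median of 8.18 CPM in the control, and the lower genes had a median of 24.2 CPM. Just inside the 2-fold limit were JOSD2 (log2 ratio 1.001) and KAZN (−1.001), and just outside were LONP1 (0.999) and SNRPB2 (−0.996). For all 157 and all 165 genes, which were chosen on the same ratio, the counting interval lay wholly past 1.5-fold. For low genes it is wide, as for PALM3, at 738 to 1819% of the control, and HIST1H1E, at 440.5 to 1459%. Of the higher genes 37 were also at least 2-fold higher with siRNA 1, and of the lower genes 61 were also at least 2-fold lower. Both ratios use the same control library. The share of all tested genes that far from the control with siRNA 1 was not counted, so these overlaps are not read as large or small.

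The siRNA 1 library was then added as another reference beside the control. A gene counted as different with siRNA 2 alone when at least 2-fold away, in the same direction, from the control and from siRNA 1. Both ratios of this rule use the same siRNA 2 library. By this rule 50 genes were higher (0.349%) and 41 were lower (0.286%). The lower genes were all protein-coding, with a median of 43.2 CPM in the control and 18.6 CPM with siRNA 2. The higher genes comprised 42 protein-coding and 8 noncoding genes or pseudogenes, with medians of 3.81 and 10.3 CPM. In the siRNA 1 library 39 of the 41 and 45 of the 50 lay within 1.5-fold of the control, which the rule itself favours. The siRNA 2 table is also the one with a different number of genes, so a difference in how that table was made and an effect of siRNA 2 cannot be told apart.

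**Figure D1:**
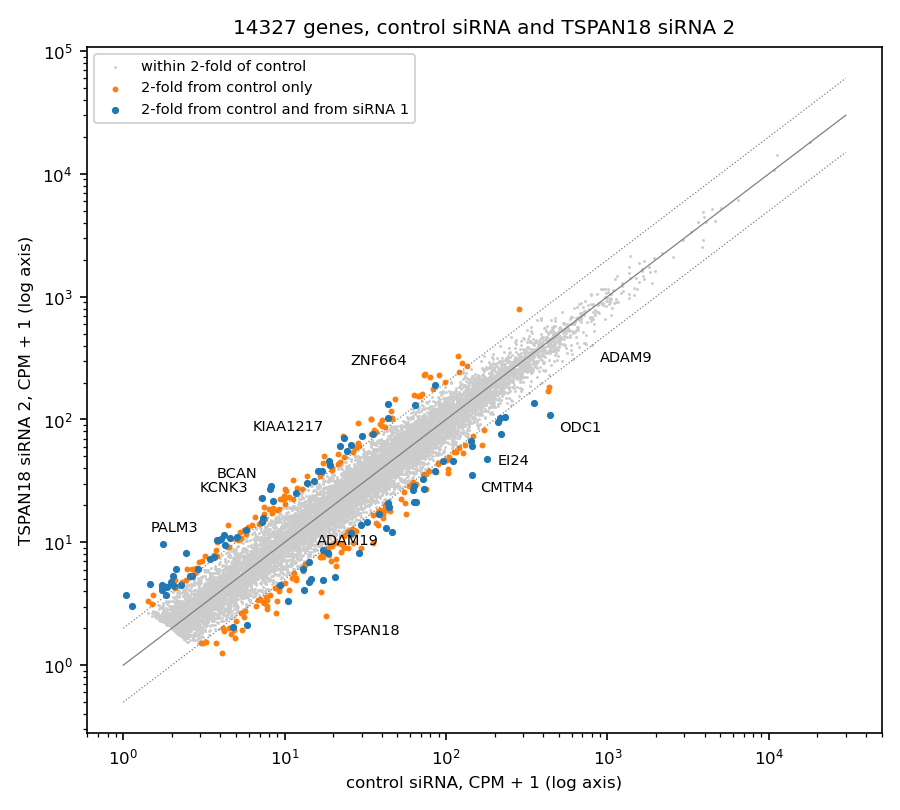
Level of each of 14327 genes in the control library (horizontal axis, CPM + 1, log axis) and with TSPAN18 siRNA 2 (vertical axis, CPM + 1, log axis), with lines of equality and of 2-fold difference. Most points lie between the dotted lines, and the blue points, at least 2-fold from both other libraries, include ODC1, EI24 and CMTM4 below and BCAN, KCNK3 and KIAA1217 above.

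Among the genes lower with siRNA 2 alone, CMTM4 and ODC1 had the lowest ratios to the control. CMTM4, a MARVEL-domain membrane protein known to help keep the checkpoint ligand PD-L1 at the cell surface, was at 144 CPM with the control siRNA, 107 CPM with siRNA 1 and 34.3 CPM with siRNA 2. It kept 23.8% of its control level (22.2 to 25.5%). ODC1, the rate-limiting enzyme of polyamine synthesis, was at 442 CPM with the control siRNA, 343 CPM with siRNA 1 and 107 CPM with siRNA 2, and kept 24.3% (23.4 to 25.3%). In both genes siRNA 1 gave a value somewhat under the control and siRNA 2 a value far under both.

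Several of these genes encode proteins of membranes and of the secretory route. ADAM19, a membrane metalloprotease that sheds growth factors, was at 45.4, 48.1 and 11.1 CPM, so that siRNA 1 left it at its control level. EI24, an endoplasmic reticulum protein with a role in autophagy, was at 178, 166 and 46.8 CPM. SLC4A8, a sodium-driven bicarbonate exchanger, was at 16.2, 24.2 and 3.90 CPM, with the siRNAs on opposite sides of the control. EMC1, a subunit of the complex that inserts proteins into the endoplasmic reticulum membrane, was at 144, 132 and 59.4 CPM, and the plasma membrane calcium pump ATP2B4 was at 216, 214 and 102 CPM. In each of these 5 genes the siRNA 2 value was under 50% of the lower of the other values, as the rule for this group requires.

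Secreted signals and regulators were lower as well. NTN1, the guidance cue netrin, was at 41.4, 38.6 and 12.2 CPM, and APLN, the peptide hormone apelin, was at 17.5, 18.6 and 7.26 CPM. PIM2, a serine/threonine kinase that promotes survival, was at 28.01, 19.7 and 7.12 CPM. PEG10, an imprinted gene derived from a retrotransposon, was at 218, 291 and 75.5 CPM, and here siRNA 1 gave the highest value. MAPKAP1, a core subunit of mTORC2 also called SIN1, showed the same order, at 230.2, 268 and 104 CPM. SOCS1, a feedback inhibitor of cytokine signalling, was at 9.45, 6.29 and 2.35 CPM. Both F13A1, the A subunit of coagulation factor XIII, and ITGB3, an integrin beta subunit, are of low level in these cells. F13A1 was at 3.76, 5.58 and 1.04 CPM. ITGB3 was at 4.86, 3.68 and 1.11 CPM, with 51.6% of its exon bases also inside another gene.

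**Figure D2:**
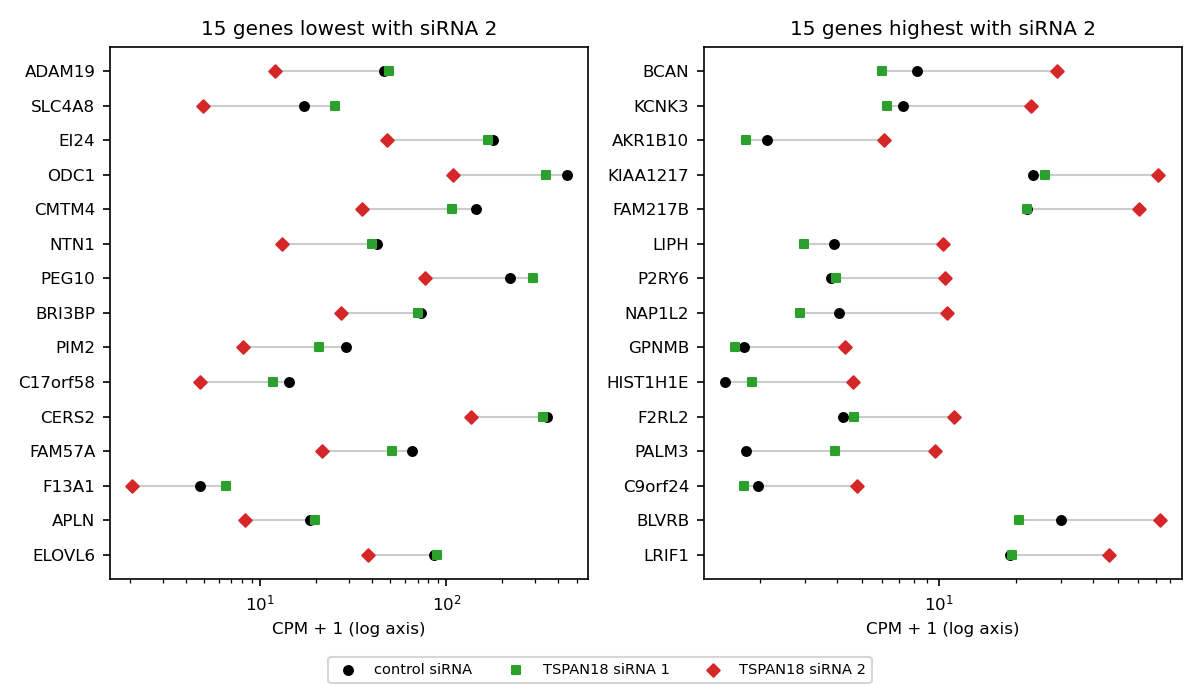
Levels (CPM + 1, log axis) in the 3 libraries, for the 15 genes lowest and the 15 highest with siRNA 2, ranked by the smaller of the ratios to control and to siRNA 1. Black circles are the control, green squares siRNA 1 and red diamonds siRNA 2. The circle and the square lie close together for most genes, for example at 45.4 and 48.1 CPM for ADAM19, while the diamond lies apart at 11.1 CPM.

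The 3′ UTRs of these lower genes had a short sequence in common. All 15943 heptamers (sequences of 7 bases) that occur in 100 or more tested 3′ UTRs were scored, over the 12255 tested genes with an annotated 3′ UTR (GENCODE release 29, 1 transcript a gene), by the median log2 ratio of siRNA 2 over control in genes that hold them less that in genes that do not. On the ratios as they stand, GC-rich sequences were lowest, led by CCGTCCG, with −0.21 over 126 genes. With the trend on GC content removed, the lowest were GGGTCAA, with −0.14 over 744 genes, and TGGGTCA, with −0.13 over 1432 genes. These heptamers overlap in 1 octamer, TGGGTCAA. Heptamers were also ranked by the percentage points by which their share of the genes lower with siRNA 2 alone exceeded that of all genes. By this measure the pair came first, TGGGTCA in 24 of 41 (58.5%, against 11.7% of all genes) and GGGTCAA in 18 (43.9%, against 6.07%). GGGTCAG, which shares 6 letters with them but lies outside the octamer, was in 18 too (against 12.2%). By the same measure it came second among all genes at least 2-fold lower than control (29.6%), after TGGGTCA (35.2%). By share alone, commoner heptamers stood higher. AGGAGGA was in 51.2% of the 41 genes, more than GGGTCAA, but also in 20.6% of all genes. Among the genes lower than control CCCACCC, at 42% against 25.1% of all genes, stood above TGGGTCA. In the ratio of siRNA 2 over siRNA 1, which does not use the control, TGGGTCA gave −0.13 and GGGTCAA −0.14, while CCGTCCG gave −0.001. They did not lead that ratio, in which 5 rarer heptamers, each in 141 to 196 genes, were lower (TACTTCG, −0.16, to GCGGAAT, −0.14). With the GC trend removed from it, 5 others were lowest again, led by TCGGCCG (−0.17 over 141 genes), so of the 4 orderings by median the pair led 1. Among the genes lower with siRNA 2 alone, 31 of 41 (75.6%, exact interval 59.7 to 87.6%) held either heptamer in the 3′ UTR. Of all genes with a 3′ UTR 14.6% did, and of the genes higher with siRNA 2 alone 3 of 42 did (7.14%). The heptamers were found in these same libraries, so the shares describe them and are no independent evidence.

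Matches to these heptamers are called sites below, as a name for the letters only. Those shown lie in TSPAN18 itself and in genes that were among the lowest with siRNA 2 or, as SLC7A5, lost much of a high level. Each is a stretch of 24 bases of the message sense strand, written as DNA, 5′ to 3′, from the GENCODE transcript, with the octamer or heptamer in capitals. TSPAN18, on chromosome 11, holds 2 sites in its coding sequence and 1 in its 3′ UTR. The other genes are shown with sites of their 3′ UTR.
TSPAN18, coding sequence, base 97: tggccatcggcatcTGGGTCAtgg
TSPAN18, coding sequence, base 446: atttggttgctgcgGGGTCAAcgg
TSPAN18, 3′ UTR, base 3023: tcctccttcccccaTGGGTCAtat
ODC1, chromosome 2, base 143: ggaagactaggataTGGGTCAcac
ADAM19, chromosome 5, base 492: tagggattaaggaaGGGTCAAgcc
ADAM19, chromosome 5, base 1811: ccatgtccttgccgTGGGTCAtcc
ADAM19, chromosome 5, base 1827: ggtcatccttgctgTGGGTCAtcc
EI24, chromosome 11, base 872: tataggaactgaagGGGTCAAtgt
SLC4A8, chromosome 12, base 3602: cctggacgacttcaTGGGTCAgtc
NTN1, chromosome 17, base 3813: catgacgtattgttTGGGTCAAtg
PIM2, chromosome X, base 477: ctagggtcccatatTGGGTCAAgc
PEG10, chromosome 7, base 4175: catacatttatgaaGGGTCAAttt
CD82, chromosome 11, base 723: gactgcctactgggTGGGTCAAct
SLC7A5, chromosome 16, base 308: ttaaacttaaatttTGGGTCAAct

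Positions count from 1 at the first base of the coding sequence or of the 3′ UTR. NTN1, PIM2, CD82 and SLC7A5 hold the whole octamer. In ADAM19, 2 copies of TGGGTCA stand in a direct repeat, with starts at bases 1811 and 1827. HS6ST1, also among the lowest against the control but not shown, holds 5 sites in its 3′ UTR. Its log2 ratios were −1.74 with siRNA 2 and −1.44 with siRNA 1. NKD1, with 4 sites, was at −0.855 and −2.03 in the same order. Not every gene lower with siRNA 2 alone has a site. CMTM4, CERS2, LGMN and SOCS1 hold neither heptamer in the 3′ UTR. Of the 10 genes without a 3′ UTR site, 4 hold one in the coding sequence, among them MAPKAP1 and APLN. Whether siRNA 2 acts on any of these messages through the sites was not tested.

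The remaining genes of this group with sites cover several functions. HIP1, an adaptor of clathrin-mediated endocytosis, holds 4 sites and was at 109, 92.97 and 44.7 CPM. SORL1, an endosomal sorting receptor, and AQP3, a channel for water and glycerol, hold the octamer, and were at 71.4, 69.9 and 31.6 CPM and at 12.1, 13.1 and 5.04 CPM. The deubiquitinase USP46, with 2 sites, was at 28.6, 32.5 and 12.9 CPM. The siRNA 1 library was close to the control in all 4. Among transcription factors, MXI1, a repressor that pairs with MAX, was at 13.5, 9.56 and 4.03 CPM, and the homeobox factor HOXA10 at 12.1, 8.26 and 3.12 CPM. BRI3BP, a mitochondrial protein, was at 72.2, 69.1 and 26.3 CPM and FAM57A, a membrane protein of the ceramide synthase-like family, at 64.04, 49.9 and 20.5 CPM. ELOVL6, described with the lipid enzymes below, belongs here too. Of the genes without a 3′ UTR site, LGMN, a lysosomal protease, was at 62.6, 44.03 and 20.1 CPM, and PTGER4, a receptor for prostaglandin E2, at 13.2, 14.1 and 5.98 CPM. The scavenger receptor SCARF1 was at 8.35, 11.3 and 3.49 CPM. Of all 1792 genes with a site, 31 (1.73%) belong to the group.

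The share of genes at least 2-fold lower was then read by the kind and number of sites. The 292 genes with the octamer had a median log2 ratio of −0.12 to the control, and 18 of them (6.16%, interval 3.69 to 9.57%) were at least 2-fold lower. For the 1140 genes with TGGGTCA alone the median was −0.12, with 39 genes (3.42%, interval 2.44 to 4.65%) at least 2-fold lower. For the 360 genes with GGGTCAA alone it was −0.07, with 10 genes (2.78%, interval 1.34 to 5.05%). For the 10463 genes with neither it was 0.02, with 95 genes (0.908%, interval 0.735 to 1.11%). The classes differed more in the share of genes far below the control than in their medians. Counting only genes at least 2-fold below both other libraries, the shares were 2.74, 1.40, 1.94 and 0.0956% in the same order. By number of sites, 3.38% of 1511 genes with 1 site, 4.80% of 229 genes with 2 sites and 9.62% of 52 genes with 3 or more were at least 2-fold lower than the control. Their intervals, 2.52 to 4.41%, 2.42 to 8.43% and 3.2 to 21%, overlap, as do those of the 3 kinds of site, so no order among them is read. By number of sites the medians were −0.09, −0.15 and −0.22 with siRNA 2 and −0.08, −0.12 and −0.21 with siRNA 1. Genes with neither heptamer were at 0.02 with siRNA 2 and −0.11 with siRNA 1. In siRNA 2 over siRNA 1 the medians by number of sites were 0.001, −0.03 and −0.02, each below the 0.13 of genes with neither. Genes with a site only in the coding sequence were at −0.05 (1343 genes, 1.27% at least 2-fold lower).

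Genes with a site have longer 3′ UTRs, with a median of 2962 bases against 1204, so the comparison was repeated by length. Among 3′ UTRs of up to 818 bases, 5.92% of genes with a site and 1.05% of those without were at least 2-fold lower. For lengths up to 2195 bases the shares were 4.28 and 0.835%, and above that 3.18 and 0.813%. A site thus went with a larger share lower than the control at each length. At least 2-fold below both other libraries were 1.18 and 0.0766%, 2.24 and 0.139%, and 1.59 and 0.0677%, from short to long. The 1.18% is 2 genes. Among the shortest 3′ UTRs, genes with a site had medians of −0.247 with siRNA 2 and −0.226 with siRNA 1. Those without had −0.045 and −0.205. The shares at least 2-fold lower with siRNA 1 were not counted. In siRNA 1 over control, the median was −0.09 for all genes with a site and −0.11 for genes with neither heptamer.

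**Figure D3:**
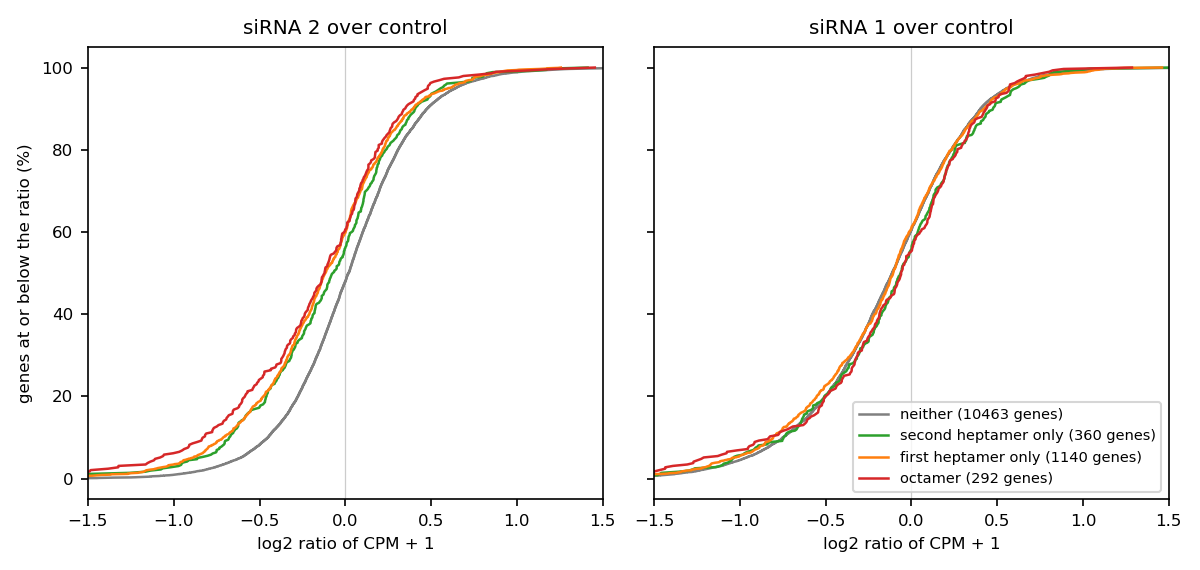
Cumulative share of genes (vertical axis, %) at or below each log2 ratio of CPM + 1 (horizontal axis), for siRNA 2 over control and siRNA 1 over control. Lines are genes with the octamer (292), either heptamer alone (1140 and 360) or neither (10463) in the 3′ UTR. With siRNA 2 the octamer line lies left of the line for neither, with medians of −0.12 and 0.02, and with siRNA 1 the medians are −0.06 and −0.11.

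Genes higher with siRNA 2 alone were led by a single locus. BCAN encodes brevican, a proteoglycan of the extracellular matrix known from the brain. It was at 7.22 CPM with the control siRNA, 5.01 CPM with siRNA 1 and 27.8 CPM with siRNA 2, or 385% of the control (331 to 449%). The noncoding gene AL365181.2, which lies next to it in the annotation on the other strand, was at 7.09, 4.41 and 26.3 CPM. The antisense gene AL365181.3, which overlaps BCAN, was at 42.4, 21.2 and 132 CPM, and AL590666.2, another one, at 7.49, 3.18 and 20.5 CPM. All 4 were lowest with siRNA 1 and highest with siRNA 2. NES, the next gene along, which encodes the intermediate filament nestin, was at 9.21, 15.01 and 18.01 CPM, higher with both siRNAs. GPATCH4, on the other side of BCAN, was at 157, 152 and 158 CPM, so the difference did not extend to it. The strand setting of the counting is unknown here, so reads of BCAN and its antisense partners cannot be told apart.

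Channels, receptors and enzymes were among the others. KCNK3, an acid-sensitive background potassium channel, was at 6.25, 5.28 and 21.8 CPM. P2RY6, a receptor for extracellular UDP, was at 2.79, 2.98 and 9.51 CPM, and F2RL2, a receptor of the protease-activated family, at 3.23, 3.64 and 10.4 CPM. LIPH, a lipase that makes lysophosphatidic acid, was at 2.89, 1.97 and 9.37 CPM. These 4 genes are of low level in DU145, and each was within 1.5-fold of the control with siRNA 1. KIAA1217 and FAM217B, of higher level, showed the same pattern, at 22.3, 25.01 and 70.2 CPM and at 21.1, 21.1 and 59.5 CPM. PRKAA2, a catalytic subunit of the energy sensor AMPK, was at 18.1, 15.8 and 41.7 CPM. The other catalytic subunit, PRKAA1, was at 238, 397 and 303 CPM and so highest with siRNA 1. KDM6B, a histone demethylase that removes the repressive H3K27 mark, was at 62.9, 57.9 and 130.5 CPM. The orphan nuclear receptor NR4A3 was at 6.35, 5.25 and 14.9 CPM.

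Further genes higher with siRNA 2 alone include regulators of growth and stress. CCNG2, an atypical cyclin linked to growth arrest, was at 3.56, 4.28 and 9.84 CPM, and CREBRF, a regulator of the unfolded protein response, at 2.66, 2.61 and 6.58 CPM. In both siRNA 1 was within 1.5-fold of the control. MYH14, a nonmuscle myosin heavy chain, was at 42.5, 37.2 and 101 CPM, and DYSF, a membrane repair protein, at 23.2, 25.1 and 54.4 CPM. SNCG, a synuclein, was at 4.06, 3.34 and 10.2 CPM. SLCO2B1, an organic anion transporter, was at 1.43, 2.67 and 7.16 CPM, with siRNA 1 in between. LRIF1, a nuclear protein of heterochromatin, was at 17.9, 18.2 and 45.1 CPM.

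By absolute level, several of the largest gains were shared with siRNA 1. GANAB, a glucosidase of glycoprotein folding, was at 282, 813 and 798 CPM, and PSAT1, of serine synthesis, at 367, 665 and 650.5 CPM. CTTN, an actin-binding protein, was at 385, 639 and 663 CPM and ANXA1, a phospholipid-binding annexin, at 336, 524 and 566 CPM. The long noncoding RNA NORAD was at 250.4, 409 and 465 CPM. In these 5 the siRNAs lay closer to each other than to the control, while SQSTM1, described below, was higher mainly with siRNA 2. Among the largest losses, PTPRF, a receptor tyrosine phosphatase, was at 820.4, 825 and 525 CPM, near the control with siRNA 1, while SLCO4A1, an organic anion transporter, was at 719.7, 438 and 422 CPM, lower with both. Of the noncoding genes, THAP7-AS1 was at 2.83, 5.55 and 9.10 CPM and AP002387.1 at 10.7, 5.08 and 4.13 CPM, the latter lower with both siRNAs.

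Several of the genes with the highest ratios to the control were also higher with siRNA 1. PALM3, a member of the paralemmin family, had the highest ratio (log2 2.45), at 0.765, 2.94 and 8.67 CPM. CYP1B1, a cytochrome P450 regulated by the aryl hydrocarbon receptor, was at 27.4, 60.8 and 93.4 CPM, with siRNA 1 in between. For ZW10, a kinetochore protein, and SETD7, a lysine methyltransferase, the siRNAs were closer to each other, at 22.1, 61.01 and 71.9 CPM and at 47.5, 123 and 147 CPM. CDK14, a cyclin-dependent kinase of Wnt signalling, was at 6.19, 15.2 and 22.1 CPM. In the 3′ UTRs of the 134 genes at least 2-fold higher than control, AGGAGAA stood furthest above its share of all genes. It was held by 64 (47.8%) against 25.8% of all genes. That is 21.9 percentage points above all genes, beside 23.5 for TGGGTCA in the genes lower than control. By share alone AAAAATT stood above AGGAGAA, at 53.7% against 37.8% of all genes. In the 42 genes higher with siRNA 2 alone the leading sequence by points above all genes, TCCCAGC, was held by 21 (50%) against 29% of all genes.

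Promoters of the genes with higher values were searched for 5 motifs on both strands, in windows of 250 bases before to 50 after the gene start (RefSeq, GRCh38.p14), for 10060 tested genes with such a window. TGAGTCA, the site bound by AP-1 factors such as FOS and JUN, was present in 6 of 34 genes higher with siRNA 2 alone (17.6%, interval 6.76 to 34.5%). It was present in 3.04% of all windows, in 11 of 114 genes at least 2-fold higher than control (9.65%) in 1 of 118 at least 2-fold lower (0.847%) and in 0 of 30 lower with siRNA 2 alone. The antioxidant response element core TGACNNNGC, which can overlap TGAGTCA read on its other strand, was in 17.6% of the genes higher with siRNA 2 alone and 15.3% of all. The E-box CACGTG was in 5.88 and 10.1%. The ATF4 composite element TGATGNAAN was in 0 of the 34 and 1.6% of all, and the NF-kB site in 0 and 0.596%. All 306 genes with TGAGTCA had a median log2 ratio of 0.05, near the 0.01 of the genes without it. The windows below show the match, in capitals, for 5 of those 6 genes and for ME1. In EGF, LUCAT1 and ME1 the match is also part of an antioxidant response element core on one strand.
EGF, chr4:109912839-109912899, plus strand: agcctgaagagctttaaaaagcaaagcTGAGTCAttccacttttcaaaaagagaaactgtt
F2RL2, chr5:76623407-76623467, minus strand: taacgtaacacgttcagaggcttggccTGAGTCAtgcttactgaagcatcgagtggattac
LUCAT1, chr5:91314421-91314481, minus strand: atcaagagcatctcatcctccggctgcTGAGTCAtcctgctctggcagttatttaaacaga
GPNMB, chr7:23246614-23246674, plus strand: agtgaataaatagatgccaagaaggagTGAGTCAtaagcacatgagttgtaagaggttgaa
GCNT3, chr15:59611755-59611815, plus strand: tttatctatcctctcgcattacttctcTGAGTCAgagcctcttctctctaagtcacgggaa
ME1, chr6:83431155-83431215, minus strand: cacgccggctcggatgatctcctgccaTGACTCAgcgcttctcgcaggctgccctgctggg

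EGF, the growth factor itself, was at 3.29, 2.81 and 8.47 CPM. GPNMB, a membrane glycoprotein of lysosomes and melanosomes, was at 0.732, 0.602 and 3.29 CPM. In GCNT3, an enzyme of mucin glycosylation, the level was higher, at 24.9, 29.5 and 60.7 CPM. LUCAT1, a long noncoding RNA known to respond to oxidative stress, was at 12.8, 10.4 and 29.4 CPM. In each of the 4 the control and siRNA 1 lay close together and siRNA 2 apart. CLIC2, the remaining gene of this group, was at 1.03, 1.37 and 4.37 CPM.

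Gene lists were then read by their counts and medians, beside the 6.35% of all genes at least 1.5-fold higher and 6.59% lower. The share of all tested genes above or below both other libraries by any size was not counted. Counts of list members of that kind, here and elsewhere in the text, therefore have no such share beside them. Genes of the proteasome, the complex that degrades ubiquitin-tagged proteins, were mostly higher with siRNA 2. Their list was put together after seeing values, as were those of its activators, ubiquitin, polyamines, ceramides and metallothioneins below. Such counts describe these libraries and are no independent evidence. Of the 32 proteasome subunit genes, 9 were at least 1.5-fold higher and 1 lower, and 28 were above both other libraries. The median log2 ratio was 0.49 with siRNA 2 and 0.06 with siRNA 1. The lid subunit PSMD13 was at 90.2, 101 and 167 CPM and PSMD3, another, at 335, 302 and 522 CPM. The ATPases PSMC4 and PSMC2, which unfold substrates, were at 164, 170 and 301 CPM and at 165, 186 and 262 CPM. PSMB6, a catalytic subunit of the core particle, was at 139, 137 and 210.5 CPM. In all of these siRNA 1 was near the control. PSMC1, an ATPase of the same ring as PSMC4, differed from the others, at 57.99, 63.6 and 30.2 CPM. It has processed pseudogenes, with which reads may be shared. Of the 32 subunits only PSMD8 holds a site in its 3′ UTR. The 18 activators and assembly factors had a median of 0.10, with 1 at least 1.5-fold higher, PSME4 at 149, 179 and 234 CPM.

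Ubiquitin genes and chaperones were partly higher. SQSTM1, the autophagy receptor that binds ubiquitin, was at 387, 407 and 640.1 CPM, with 39.8% of its exon bases also inside another gene. UFD1, a cofactor of the segregase VCP, was at 103, 133 and 168 CPM. VCP itself was not higher, at 877, 881 and 756 CPM. The heat shock gene HSPA1A, uncertain because of its near-identical copy HSPA1B, was at 51.7, 75.9 and 89.8 CPM. NFE2L1, a transcription factor known to drive proteasome genes, was at 269, 265 and 355 CPM. Of the 18 genes of this list 5 were at least 1.5-fold higher and 0 lower, and the median was 0.29, against 0.04 with siRNA 1.

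Of 24 autophagy genes, 6 were at least 1.5-fold higher, 1 of them 2-fold, and 0 lower, 5 lay below the control, and the median was 0.34 with siRNA 2 and 0.12 with siRNA 1. ULK1, the kinase that starts autophagy, was at 65.7, 78.9 and 154 CPM, while its relative ULK2 was at 35.8, 18.5 and 31.6 CPM. The ATG8 family members GABARAPL1 and MAP1LC3B, which coat the autophagosome, were at 25.8, 33.8 and 50.2 CPM and at 97.4, 125 and 182 CPM. In ULK1 and both ATG8 genes siRNA 1 lay between the control and siRNA 2, nearer the control. WIPI2, which binds phosphoinositide on the forming membrane, was higher with both siRNAs, at 74.5, 108 and 123 CPM. So was the receptor TAX1BP1, at 146, 262 and 227 CPM. With the GC trend removed the median was 0.38 for the proteasome and 0.23 for autophagy. Lysosome genes had a median of 0.07, with 0 of 34 at least 1.5-fold higher and 1 lower, CTSZ at 200, 176 and 126 CPM.

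**Figure D4:**
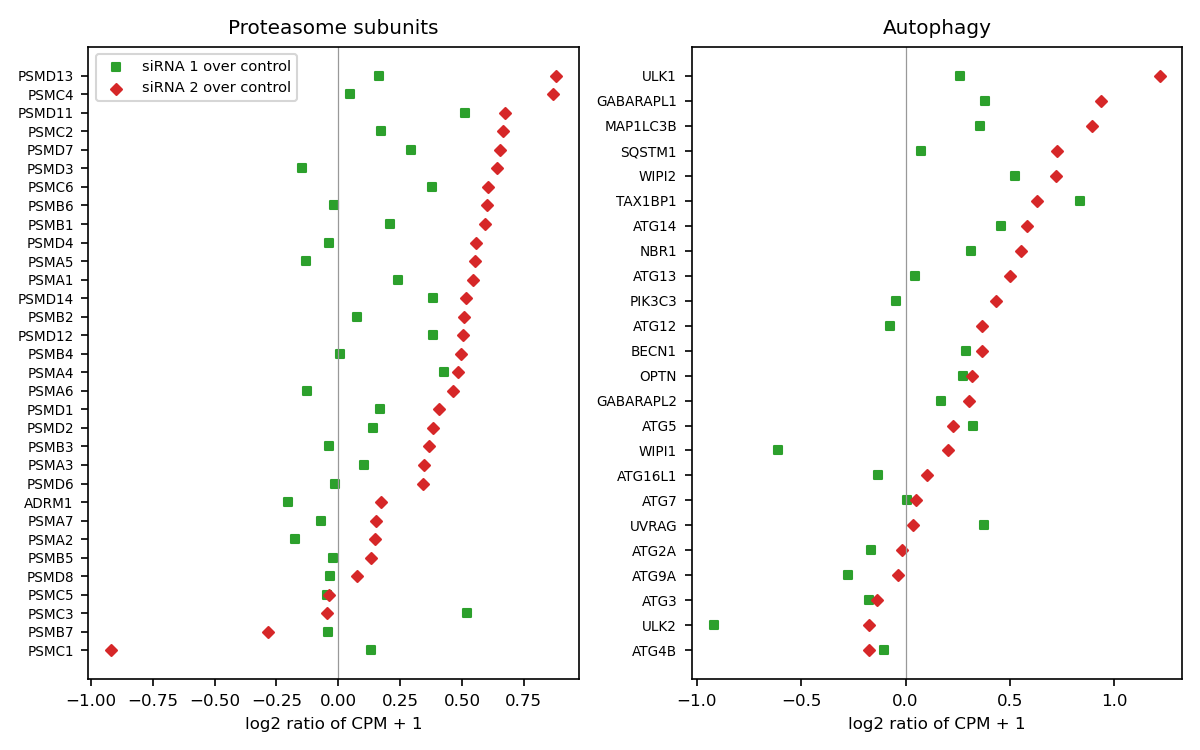
Log2 ratio of CPM + 1 to the control (horizontal axis) for 32 proteasome subunits and 24 autophagy genes (vertical axis), with siRNA 2 as red diamonds and siRNA 1 as green squares. Most diamonds of the proteasome lie right of their square (28 of 32 above both other libraries), and PSMC1 lies left, at −0.92. The proteasome list was put together after seeing values.

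Targets of NRF2, the transcription factor of the antioxidant response, gave an uneven picture. In a list of 17 of its less known targets, put together after seeing values, 6 were at least 1.5-fold higher and 0 lower, with a median of 0.38 against −0.01 with siRNA 1. BLVRB, which reduces biliverdin and flavins, was at 28.9, 19.5 and 71.99 CPM. PIR was at 22.96, 25.04 and 43.9 CPM, CYP4F11 at 8.18, 7.46 and 15.3 CPM and the pseudogene NMRAL2P at 3.46, 6.29 and 12.9 CPM. The list of 22 NRF2 targets and iron storage genes had a median of 0.18, with 6 at least 1.5-fold higher and 0 lower. Of these, AKR1B10, an aldo-keto reductase, was at 1.13, 0.769 and 5.11 CPM, and ME1, the malic enzyme that makes NADPH, at 33.5, 77.05 and 99.9 CPM. Its best known members were close to the control. HMOX1, haem oxygenase, was at 58.1, 57.5 and 54.9 CPM and NQO1, a quinone reductase, at 598, 786 and 521 CPM. GCLM, of glutathione synthesis, was at 94.7, 106 and 109.8 CPM.

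Genes downstream of ERK signalling were mostly lower. Of 21 genes listed as output and feedback of this pathway, 7 were at least 1.5-fold lower and 0 higher, and 14 were below both other libraries. The median log2 ratio was −0.51 with siRNA 2 and −0.17 with siRNA 1. CCND1, the cyclin of the G1 phase, was at 736, 562 and 414 CPM, and FOSL1, an AP-1 subunit, at 593, 399 and 366 CPM. The receptor tyrosine kinase EPHA2 was at 650.4, 643 and 419.5 CPM and the feedback inhibitor SPRY4 at 54.4, 50.9 and 35.1 CPM, both near the control with siRNA 1. The phosphatase DUSP7 was at 33.4, 11.6 and 16.5 CPM, lowest with siRNA 1. SPRED1, another inhibitor, and the ETS factor ETV5 were not lower, at 57.9, 83.6 and 61.4 CPM and at 145, 169 and 156 CPM. With the GC trend removed the median was −0.44.

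Ligands of the EGF receptor family did not move together. TGFA was at 94.3, 193 and 45.2 CPM, so that the siRNAs lay on opposite sides of the control, and its 3′ UTR holds 1 site. EREG showed the same order, at 103, 191 and 70.3 CPM, also with 1 site. HBEGF was at 71.3, 54.99 and 47.2 CPM and AREG at 78.5, 83.4 and 77.7 CPM, while EGF was higher with siRNA 2 as given above. The membrane proteases of the ADAM family, some of which shed such ligands, were also divided. ADAM9 was at 801, 882 and 403 CPM, ADAM8 at 41.5, 21.5 and 17.4 CPM and ADAM12 at 35.6, 26.5 and 18.3 CPM, next to ADAM19 on the lower side. ADAM15 was at 125, 209 and 289.8 CPM, and ADAM17, a main sheddase of these ligands, at 88.8, 112 and 124 CPM. Among the 18 ADAM, MMP and TIMP genes, 2 were at least 1.5-fold higher and 6 lower. The median was −0.34, against 0.10 with siRNA 1, −0.19 with the GC trend removed and −0.11 with no filter on level.

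Among genes of pericellular proteolysis, PLAU, the urokinase plasminogen activator, was at 436, 311 and 183 CPM, and its receptor PLAUR at 172, 109 and 102 CPM. The membrane metalloprotease MMP14 was at 109.5, 119 and 61.8 CPM. SERPINB5, a serpin also called maspin, was higher, at 1.90, 1.24 and 5.07 CPM, and the 13 genes of the plasminogen list had a median of 0.10. Of 27 integrin and focal adhesion genes, 5 were at least 1.5-fold lower and 0 higher, with a median of −0.31, and −0.18 with siRNA 1. Over the members without a site the siRNA 2 median was −0.18 too. BCAR1, a docking protein of focal adhesions with 1 site, was at 328, 301 and 186 CPM. The focal adhesion kinase PTK2 and the integrin subunit ITGA5 were above the control, at 156, 191 and 216 CPM and at 316, 229 and 388 CPM.

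**Figure D5:**
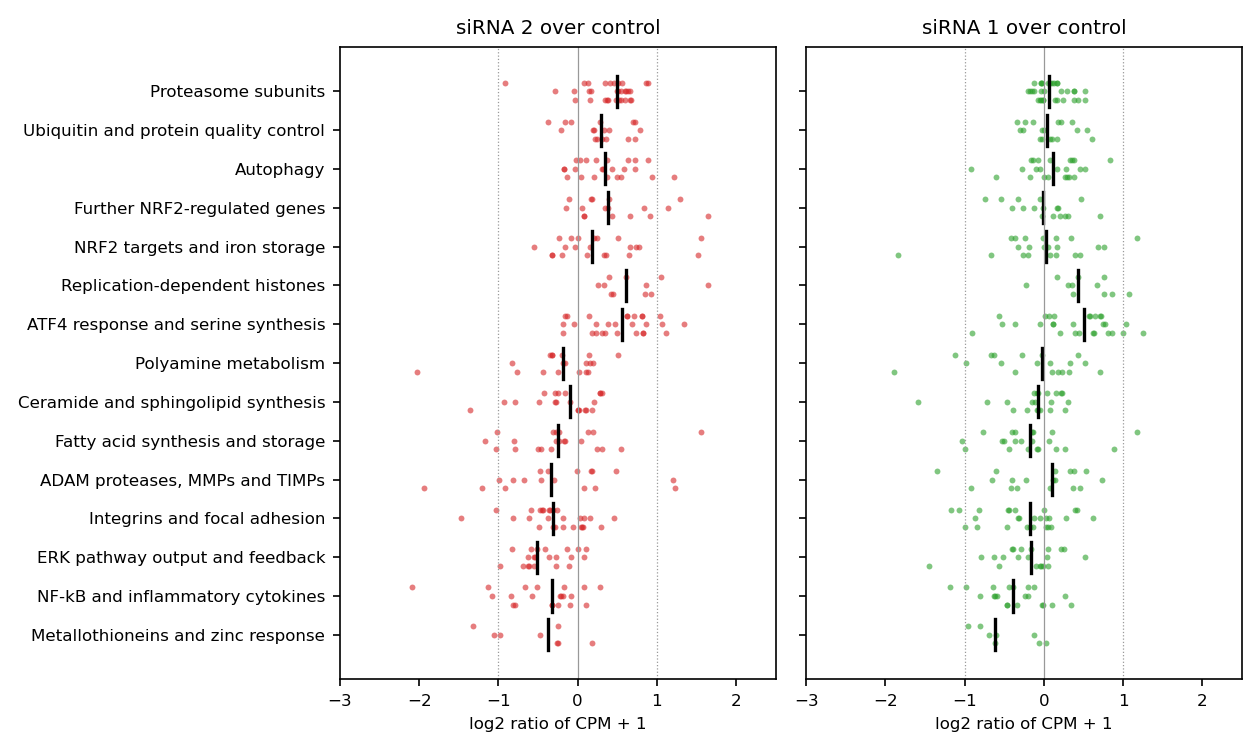
Log2 ratio of CPM + 1 to the control (horizontal axis) for each member of 15 gene lists (vertical axis), with siRNA 2 on the left and siRNA 1 on the right. Dots are genes, black bars medians and dotted lines 2-fold. Proteasome subunits have a median of 0.49 on the left and 0.06 on the right, and ERK output genes −0.51 and −0.17. The lists of the proteasome, ubiquitin, further NRF2 genes, polyamines, ceramides and metallothioneins were put together after seeing values.

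Lipid and polyamine enzymes were among the lower genes, while the rest of their pathways differed less. In fatty acid synthesis and storage, 5 of 22 genes were at least 1.5-fold lower and 1, ME1, higher (median −0.25, against −0.17 with siRNA 1). ELOVL6, an elongase of long-chain fatty acids, was at 84.6, 88.3 and 37.1 CPM, and ELOVL1, which acts on longer chains, at 118, 91.8 and 57.8 CPM. FASN, the fatty acid synthase, was at 724, 532 and 419 CPM, and the desaturase SCD, with 2 sites, at 524, 368 and 299.5 CPM. Their regulator SREBF1 was near the control, at 62.3, 50.9 and 64.1 CPM. In ceramide synthesis, CERS2, which makes very-long-chain ceramides, was at 347, 330.5 and 135 CPM, and DEGS1, the desaturase of the last step, at 136, 123 and 71.2 CPM. The ceramide synthases CERS5 and CERS6 were close to the control, at 55.3, 64.2 and 49.4 CPM and at 33.5, 28.9 and 36.1 CPM. The 21 genes of that list had a median of −0.10, with 3 at least 1.5-fold lower and 0 higher. In polyamine metabolism, AMD1, which makes the aminopropyl donor, was at 127, 125 and 181 CPM, and SRM, spermidine synthase, at 137, 36.2 and 100.5 CPM. The median over 19 genes was −0.18, with 3 at least 1.5-fold lower and 0 higher, and 0.01 over the 15 members without a site.

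Single genes of nutrient transport and glycolysis were much lower. SLC7A5, the light chain of the leucine transporter, was at 608, 765 and 311 CPM, while its partner SLC3A2 was at 315, 421 and 424 CPM, above the control. SLC2A1, the glucose transporter GLUT1, was at 253, 262 and 130.5 CPM and holds no site. PKM, pyruvate kinase, lost the most CPM of any gene past 1.5-fold, at 3849, 3548 and 2557 CPM. NDRG1, a hypoxia-induced gene, was higher, at 57.9, 44.8 and 103 CPM. Of 27 glycolysis and hypoxia genes, 1 was at least 1.5-fold higher and 3 lower. The median was −0.17 with both siRNAs, and it turned to 0.05 with siRNA 2 over the 12 members without exon overlap.

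Other groups were lower or higher with both TSPAN18 siRNAs, which share the control. The metallothioneins MT2A and MT1E, zinc-binding proteins of a family with near-identical copies, were at 427, 220.3 and 170 CPM and at 129.5, 84.6 and 61.6 CPM. Their list had medians of −0.37 with siRNA 2 and −0.61 with siRNA 1, and 3 of its 8 members were past 1.5-fold on the lower side with siRNA 2. NF-kB and cytokine genes had medians of −0.32 with siRNA 2 and −0.39 with siRNA 1, and 7 of 21 were at least 1.5-fold lower with siRNA 2. Of these, the ubiquitin ligase BIRC3 was lower mostly with siRNA 2, at 172, 146 and 81.03 CPM. ATF4 target genes had medians of 0.56 and 0.51, with PPP1R15A, a stress-induced phosphatase subunit, at 97.5, 159.5 and 200.5 CPM. Replication-dependent histone genes, a family of near-identical copies, had medians of 0.61 and 0.43. In the machinery of RNA interference (median −0.15, turning to 0.03 over members without exon overlap), TNRC6C and TNRC6B, partners of Argonaute with 2 sites each, were at 23.8, 16.2 and 11.4 CPM and at 86, 79.3 and 50.4 CPM. DCP2, the highest gene of that list and also with 2 sites, had log2 ratios of 0.896 with siRNA 2 and 1.095 with siRNA 1. Argonaute itself, AGO2, was at 258, 267 and 233 CPM. Among the other tetraspanins, TSPAN5 with 1 site was at 54.1, 47.5 and 24.5 CPM and CD82, with the octamer, at 19.5, 9.86 and 4.20 CPM. TSPAN9, without one, was at 46.01, 48.4 and 76.9 CPM. Sites also occur in higher genes: LIPH, SERPINB5 and GABARAPL1 hold 1 each, with log2 ratios of 1.41, 1.07 and 0.937 with siRNA 2. Of all 1792 genes with a site, 14 (0.781%) were at least 2-fold higher than the control and 67 (3.74%) lower. For all genes with a 3′ UTR the shares were 1.09 and 1.32%.

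Several groups showed no gene at least 2-fold from the control with siRNA 2, beside 1.10% of all genes higher and 1.15% lower. They include 30 interferon response genes (median −0.02), 30 mitosis genes (−0.02), 23 genes of the BCL2 and caspase families (0.05), 34 lysosome genes, 25 cholesterol synthesis genes (−0.09), 37 nuclear-encoded respiratory chain genes (−0.05) and 49 ribosomal protein genes (−0.13). The proteasome subunits and the ERK output genes held none either, so a count of 0 does not set these groups apart. The 39 DNA replication genes had a median of −0.26, with 4 at least 1.5-fold lower, and −0.20 with siRNA 1. Store-operated calcium entry, the pathway of STIM1 that the series title names, had a median of −0.14 over 23 genes, with 2 at least 2-fold lower.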

How the data were processed

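RNA of DU145 cells was sequenced in 3 libraries, 1 a condition, on an Illumina instrument. Per the submitters' processing notes, the tools were HTSeq 0.6.1, HISAT2 2.1.0 and bcl2fastq 2.19.1, with the hg19 genome. Neither the annotation release nor the strand setting nor the siRNA sequences are given in the sources used here. In the deposited tables the values are CPM, read here as computed by the authors from counts of read pairs. Every value was a whole multiple (within 0.001) of the smallest in its library, taken as 1 read, with 0 odd multiples above 1. Values at 1 read, 163, 178 and 97 in the control, siRNA 1 and siRNA 2 libraries, were counted as 0 pairs. Depth was 29766559 to 30058731 pairs, so 3 pairs are 0.0998 to 0.101 CPM. No further scaling was applied.

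Ratios are on log2(CPM + 1), for genes whose mean over both libraries reached 1 CPM. Exact binomial intervals were computed from the recovered pairs for single genes and from numbers of genes for shares. The part of a ratio that follows transcript GC content was removed with a lowess trend in an alternative. Scripts ran in Python 3.11.15 with scipy 1.17.1, pandas 2.3.3, numpy 2.4.6, matplotlib 3.10.9 and statsmodels 0.14.6, with sequences of GENCODE 29 transcripts and RefSeq promoters. The steps were tested on simulated data. The authors' symbols are partly spreadsheet dates, and such genes were kept by their gene ID.

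Genes, lists and the sequence search were chosen with earlier results of these data known, and 9 of 56 lists after seeing values: the proteasome, its activators, ubiquitin, further NRF2 targets, polyamines, ceramides, metallothioneins, mTOR and AMPK, and the BCAN locus. Named genes are TSPAN18, the 15 highest and 15 lowest against the control and against both other libraries, 4 noncoding genes each way, the 8 largest gains and losses of CPM past 1.5-fold, and up to 4 members of each list by size. Other named genes were chosen after their values were seen. Some results are not reported here.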

Additional observations from a re-analysis of the deposited data

Results flagged for a closer look

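Of the 257 named genes, TGFA, TGFB2, THBS1 and 2 noncoding genes were at least 1.5-fold away from the control in opposite directions with the TSPAN18 siRNAs, and the difference between the siRNAs was not tested, since there is 1 library a condition. TGFA, a ligand of the EGF receptor, had a log2 ratio of −1.04 with siRNA 2 and 1.02 with siRNA 1. TGFB2, a ligand of the TGF-beta receptors, was at 15.2, 32.2 and 8.26 CPM in the control, siRNA 1 and siRNA 2 libraries (log2 −0.81 and 1.03 with siRNA 2 and siRNA 1). THBS1, the matrix protein thrombospondin, was at 101, 163 and 63.3 CPM in the same order (log2 −0.67 and 0.69). The noncoding genes AL365181.3 and AL590666.2 at the BCAN locus went the other way, with log2 ratios of 1.62 and 1.34 with siRNA 2, and −0.96 and −1.02 with siRNA 1. Both overlap BCAN on the other strand, so they are not separate measurements of that locus.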

How the results depend on the processing

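No paired analysis was possible because each condition has 1 library. The counts of 157 higher, 165 lower, 50 higher and 41 lower than both other libraries depend on the pseudocount. With 0.1 CPM the first 3 became 283, 306 and 115, and with 5 CPM all 4 became 59, 66, 15 and 20. At 1.5-fold they were 910, 944, 327 and 216, and at 3-fold 16, 21, 5 and 6. With a mean of at least 5 CPM, 31 genes were higher than both others. With the GC trend removed 65 were lower than both, 37 of them among the 41. Alternatives chosen after seeing the data left out genes: without site holders 98 and 10 were lower, and without genes with exon overlap 103 were lower than the control, of fewer genes tested. CCGTCCG stood at −0.213, at −0.001 in siRNA 2 over siRNA 1 and at −0.083 with the GC trend removed. Of 447 list medians under alternatives, 47 moved by over 0.1 and, of medians beyond 0.1 in size, 7 others changed sign (some nearer 0 did too). The 7 were endothelial markers (0.226 with a mean of at least 5 CPM, 0.218 with no filter), fibroblast markers (0.152, no filter), extracellular matrix (0.037, GC trend removed), polyamines (0.014, without site holders), and glycolysis and RNA interference (0.046 and 0.029, without exon overlap). The cause was not tested. Of 1510 values of 257 named genes, 178 moved and 0 changed sign. Counting intervals are wide for low genes, and differences between cultures of 1 condition were not measured.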

Other observations

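Some gene groups not described above also differed in size between the siRNA libraries. Immediate early genes had a median log2 ratio of 0.11 with siRNA 2 and −0.12 with siRNA 1, and members lay on both sides. EGR1, a transcription factor induced by serum, was at 23.8, 6.32 and 7.96 CPM in the control, siRNA 1 and siRNA 2 libraries, while ATF3, a stress-induced factor, was at 16.6, 30.99 and 49.1 CPM. YAP and TAZ target genes had a median of −0.07 with siRNA 2 and 0.25 with siRNA 1, and mitosis genes −0.02 and 0.19. Aminoacyl-tRNA synthetases were higher with both, at 0.33 and 0.29 over 20 genes, and 14 of the 20 were above both other libraries with siRNA 2. Genes of class I presentation had medians of −0.13 and −0.34.

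The subunits of mTOR and AMPK complexes had a median of −0.00 with siRNA 2 over 23 genes, with 3 at least 1.5-fold higher and 1, MAPKAP1, lower. Retrotransposon-derived and imprinted genes other than PEG10 differed little, with a list median of 0.02 over 13 genes and 1 at least 1.5-fold higher. FP671120.1, chosen after its values were seen, was at 0.0333, 0.1003 and 2.75 CPM, and its control value is that of 1 read pair, so no fold change is given.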
